A study of Mus musculus with 27 samples.

Results

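Protein kinase A (PKA), the cAMP-dependent protein kinase, was followed here through the 6 genes of its subunits, Prkar1a, Prkar1b, Prkar2a, Prkar2b, Prkaca and Prkacb. The genes were taken by symbol from the probe annotation, and the set was selected on the measured Prkar2b levels of the 10 immortalized lines, which in earlier results of these data separated the lines with mutant p53 from the wild-type (WT) lines. Of the 6 genes, 5 were measured by a probe set of their own, among 19937 genes in all. Prkaca was measured only by a probe set that it shares with Samd1, so no value is given for it.

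PKA is held inactive as a tetramer of a regulatory dimer and a pair of catalytic subunits, and cAMP bound to the regulatory subunits frees the catalytic ones. Prkar1a and Prkar1b encode the type I regulatory subunits, Prkar2a and Prkar2b the type II subunits, which A-kinase anchoring proteins (AKAPs) tether to cell structures, and Prkaca and Prkacb the catalytic subunits Cα and Cβ. In neural progenitors PKA is known for phosphorylating CREB, which then activates cAMP-responsive genes, and for restraining Hedgehog signalling through the Gli proteins.

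RNA of 27 mouse samples was measured on 1 Affymetrix array each, as log2 expression levels. Cultured cells came from immortalized lines of neural stem cells (NSCs), of which 6 were labelled p53 mutant (lines 3, 28, 31, 59, 95 and 116) and 4 were labelled WT (lines 119, 120, 123 and 331), and from 2 cultures of normal WT NSCs. The tissue samples were 12 tumors, with 3 each from the p53 mutant lines 31 and 59 and from lines 1 and 123, which are labelled WT, and 3 WT samples of subcutaneous tissue (SubQ). The labels give 1 host strain for every sample, the severe combined immunodeficient strain CB17/ICR-Prkdcscid/IcrCrl, whose mice lack mature lymphocytes and keep macrophages and other innate cells. Each line in culture was 1 array, line 1 was analysed here only as tumors, and how the lines were immortalized, their p53 allele and the age of the animals were not stated in the labels. The arrays of a group are called biological replicates without mention of separate animals or cultures, and the p-values cover the spread among the arrays alone.

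Levels were compared gene by gene, since the level of 1 probe set cannot be set against that of another. As a gauge of background, the 95th percentile of the mean levels of 1194 odorant and vomeronasal receptor genes was 6.72 in the lines, 6.84 in NSCs, 5.25 in tumors and 6.23 in SubQ tissue. All 5 measured genes lay above it in the lines, in NSCs and in tumors, and all 5 lay below it in SubQ tissue. The SubQ arrays stood apart: the standard deviation (SD) of log2 levels over genes was 1.63 to 1.79 in tumors, against 0.87 to 1.02 in SubQ samples, and arrays correlated with each other at r = 0.936 to 0.985 among tumors, against 0.656 to 0.720 among SubQ samples. Of 5 measured NSC markers, 3 lay above the gauge in the lines (Fabp7 and Prom1 did not) and 5 in the NSC cultures. In tumors 2 did, while 5 of 5 endothelial, 5 of 5 macrophage and 6 of 6 fibroblast markers lay above it. Trp53, the gene of p53, was not analysed here.

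Prkar2b lies at chr12:31958450-32061648, Prkacb at chr3:146729579-146812946, Prkar1a at chr11:109649023-109669663, Prkar1b at chr5:139017304-139150703 and Prkar2a at chr9:108692143-108750444 (GRCm38.p6, RefSeq). RefSeq promoter windows of 250 bases before a start site were found for all 6 genes. They were searched on both strands for the full cAMP response element TGACGTCA, for its shorter core TGACG or CGTCA (which the full element contains), and for the p53 decamer, which is 1 arm of a p53 response element. The 2 windows of Prkar2b held none of these motifs. Both windows lie inside the span of Prkar2b given above, so the bases before the outer end of the gene were not searched. The full element was found in 1 of 6 windows of Prkar1a, at position -49 from the start site, and in 1.55% of 32851 windows of all genes. The shorter core was in 3 of 6 windows of Prkar1a, 1 of 5 of Prkar1b, 1 of 3 of Prkacb, 1 of 2 of Prkaca and 0 of 1 of Prkar2a, against 17.8% of all windows. The p53 decamer was found only in 1 of 5 windows of Prkar1b, against 7.13% of all windows. A match is a string of letters and not a measured site. The outermost window of Prkar2b (chr12:32061278-32061527, minus strand), that of Prkacb (chr3:146812947-146813196, minus strand) and the Prkar1a window with the full element (chr11:109650699-109650948, plus strand) are printed because Prkar2b and Prkacb were the genes called between lines and NSCs, and Prkar1a had the largest difference between tumors and SubQ tissue. They run 5′ to 3′ with cAMP response elements and their cores in capitals.
Prkar2b: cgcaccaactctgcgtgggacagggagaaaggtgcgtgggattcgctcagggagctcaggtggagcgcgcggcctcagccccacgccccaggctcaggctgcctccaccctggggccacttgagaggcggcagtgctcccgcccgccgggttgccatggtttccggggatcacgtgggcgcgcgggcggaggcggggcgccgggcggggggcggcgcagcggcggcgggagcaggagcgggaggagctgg
Prkacb: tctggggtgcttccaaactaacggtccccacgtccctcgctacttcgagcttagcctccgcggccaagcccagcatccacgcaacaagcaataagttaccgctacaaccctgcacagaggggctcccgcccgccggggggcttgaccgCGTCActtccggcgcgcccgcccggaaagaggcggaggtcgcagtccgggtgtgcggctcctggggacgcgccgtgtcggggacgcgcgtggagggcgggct
Prkar1a: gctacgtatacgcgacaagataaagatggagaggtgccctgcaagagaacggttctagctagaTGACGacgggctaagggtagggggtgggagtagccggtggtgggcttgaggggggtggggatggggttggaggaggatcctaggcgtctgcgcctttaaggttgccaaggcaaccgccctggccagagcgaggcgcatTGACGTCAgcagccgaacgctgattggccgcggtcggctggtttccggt

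In culture, Prkar2b was highest in the p53 mutant lines, lower in the WT lines and lowest in NSCs. Its log2 level was 10.64 in line 3, 10.45 in line 28, 10.60 in line 31, 10.49 in line 59, 10.66 in line 95 and 10.10 in line 116, all p53 mutant. In the WT lines it was 8.98 in line 119, 9.54 in line 120, 9.23 in line 123 and 9.27 in line 331, and in the NSC cultures it was 8.68 and 8.47. The 3 groups did not overlap. Line 116 was the lowest mutant line, 0.56 below the highest, and line 120 the highest WT line, 0.55 above the lowest. The mean was 10.49 ± 0.21 (SD, n = 6) in mutant lines and 9.26 ± 0.23 (SD, n = 4) in WT lines, a difference of 1.23. This contrast chose the gene set, so it is given as a description with no p-value. Of all genes, 0.667% were higher in every mutant line than in every WT line.

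**Figure D1:**
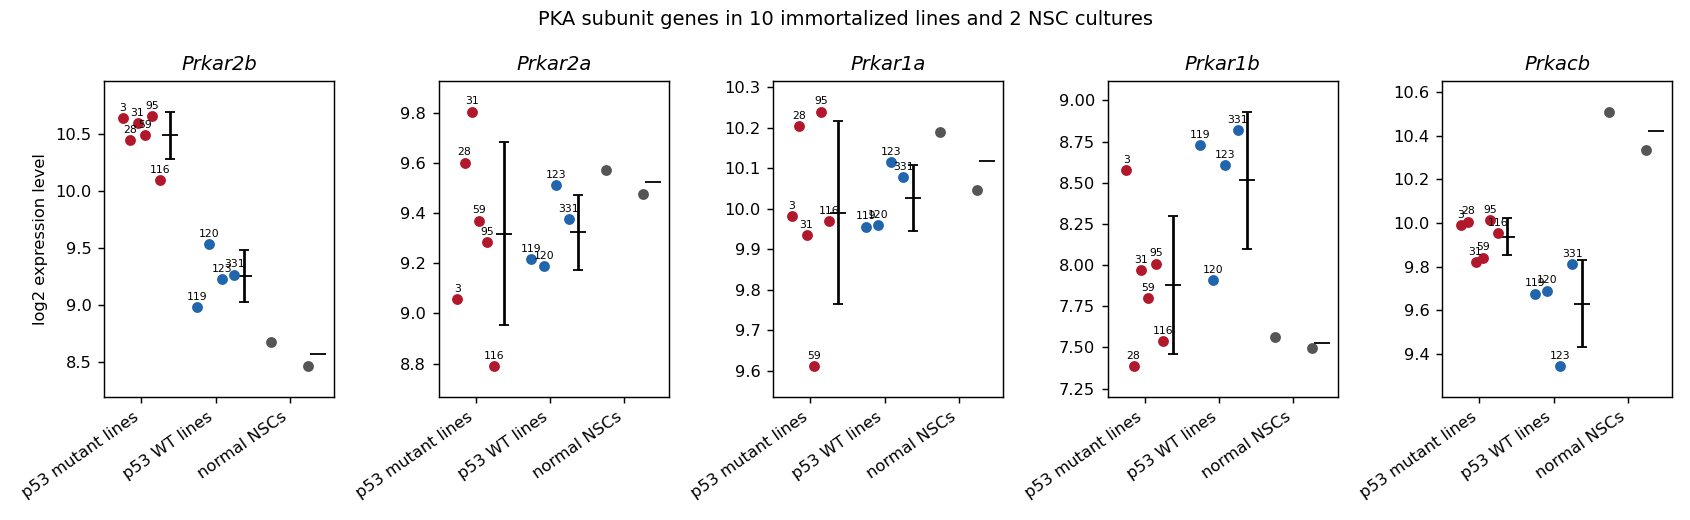
Log2 expression level of the 5 measured PKA subunit genes in 6 p53 mutant lines (red), 4 p53 WT lines (blue) and 2 normal NSC cultures (grey), 1 point per array with the line number, each panel on its own axis. Black marks are group means with SD (mean alone for the 2 NSC cultures); in Prkar2b the 3 groups are separate, with line 116 at 10.10 and line 120 at 9.54 as the closest lines of the 2 genotypes.

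Against normal NSCs, Prkar2b was higher in all 10 lines. By line, its level minus the NSC mean ran from 1.52 in line 116 to 2.08 in line 95 among the mutant lines, and from 0.41 in line 119 to 0.96 in line 120 among the WT lines. The fold over NSCs was thus between 2.87 and 4.24 in mutant lines and between 1.33 and 1.95 in WT lines. Over the 10 lines the log2 difference was 1.42 ± 0.44 SE with a limma adjusted p of 0.0458. Among all genes 15% were called at an adjusted p under 0.05, 6.79% as higher and 8.22% as lower, and the groups did not overlap in 21.3%. The call is near the threshold: it ended without any 1 of the 6 mutant lines (adjusted p 0.0577 to 0.0642), with quantile normalization (0.0590), with trended and robust moderation (0.0557), and without the first or the second NSC array (1.53, adjusted p 0.204, and 1.31, adjusted p 0.300). The mutant lines alone differed from NSCs by 1.91 ± 0.15 SE (adjusted p 4.35e-05, 15.5% of genes called) and the WT lines alone by 0.68 ± 0.17 SE (adjusted p 0.0406, 12% called). These fits, and the one over all 10 lines, use the same 2 NSC arrays and the lines that chose the set. Their p-values for Prkar2b are thus not independent of that choice and add no separate support. Cell type markers moved with the comparison: the mean of the 5 NSC markers was 6.71 to 7.68 in the lines, against 9.76 to 9.77 in NSCs, and that of the 6 fibroblast markers 7.74 to 9.90 in the lines, against 6.80 to 6.82 in NSCs. The astrocyte marker mean was also lower, at 6.68 to 7.44 in the lines, against 8.62 to 8.68 in NSCs. That of the oligodendrocyte lineage was 6.53 to 6.94 in the lines, against 8.49 to 8.63 in NSCs. By genotype, the NSC marker mean was 7.13 to 7.68 in mutant lines and 6.71 to 7.16 in WT lines. The fibroblast marker mean was 7.74 to 8.42 in mutant lines and 7.95 to 9.90 in WT lines. The part of these markers in the differences between lines and NSCs, or between the genotypes, was not tested.

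Prkar2a, the other type II subunit gene, did not separate the groups. It ranged from 8.79 in line 116 to 9.80 in line 31 over the mutant lines (median 9.33), and was 9.22, 9.19, 9.51 and 9.37 in WT lines 119, 120, 123 and 331, and 9.57 and 9.48 in the NSC cultures. The widest spread was within the mutant lines, whose SD of 0.37 compares with 0.15 in the WT lines. The 10 lines differed from NSCs by -0.20 ± 0.20 SE (adjusted p 0.607).

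Of the type I genes, Prkar1a varied least over the 10 lines. Its level was 9.61 in line 59, the lowest of all lines, and 9.93 to 10.24 in the other mutant lines, against 9.96 to 10.11 in WT lines and 10.19 and 10.05 in NSCs. Its SD over the 10 lines, 0.18, was at the median of all genes (0.18). That of Prkar2b, 0.67 (96.1st percentile), includes the gap between mutant and WT lines on which the set was chosen. Within the mutant lines the SD of Prkar2b stood at the 65.8th percentile, and within the WT lines at the 65.6th. For Prkar1a the lines differed from NSCs by -0.11 ± 0.13 SE (adjusted p 0.685).

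Prkar1b showed a different order of lines from Prkar2b. It was 8.58, 7.39, 7.97, 7.80, 8.01 and 7.54 in mutant lines 3, 28, 31, 59, 95 and 116, and 8.73, 7.91, 8.61 and 8.82 in WT lines 119, 120, 123 and 331, with 7.56 and 7.49 in NSCs. The WT lines were higher by mean (7.88 ± 0.42 in mutant lines and 8.52 ± 0.42 in WT lines, SD), but mutant line 3 lay among them and WT line 120 among the mutant lines. Over all lines the difference from NSCs was 0.61 ± 0.34 SE (adjusted p 0.298), and all lines but line 28 and line 116 lay above both NSC arrays. The WT lines alone lay above NSCs by 0.99 ± 0.25 SE (adjusted p 0.0457), and the mutant lines alone by 0.35 ± 0.27 SE (adjusted p 0.477).

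Prkacb, the measured catalytic subunit gene, was lower in all 10 lines than in both NSC cultures. It stood at 9.99, 10.01, 9.82, 9.84, 10.01 and 9.96 in mutant lines 3, 28, 31, 59, 95 and 116, at 9.68, 9.69, 9.34 and 9.81 in WT lines 119, 120, 123 and 331, and at 10.51 and 10.33 in NSCs. The mutant lines lay close together (SD 0.09), and the lowest of them, line 31 at 9.82, was just above the highest WT line, line 331 at 9.81. Of all genes, 0.667% were higher in every mutant line than in every WT line, and 21.3% did not overlap between lines and NSCs. The Prkacb level fell by 0.61 ± 0.15 SE on the log2 scale in the 10 lines (limma adjusted p 0.0139). Line 123 stood lowest, at 0.47 of the NSC level. The call ended without the first NSC array (-0.52, adjusted p 0.194) or the second (-0.70, adjusted p 0.0722) and is under 2-fold. In all, 1 of the 5 genes was called higher and 1 lower, against 6.79% and 8.22% of all genes. Their median change was -0.11, against -0.01 over all genes.

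**Figure D2:**
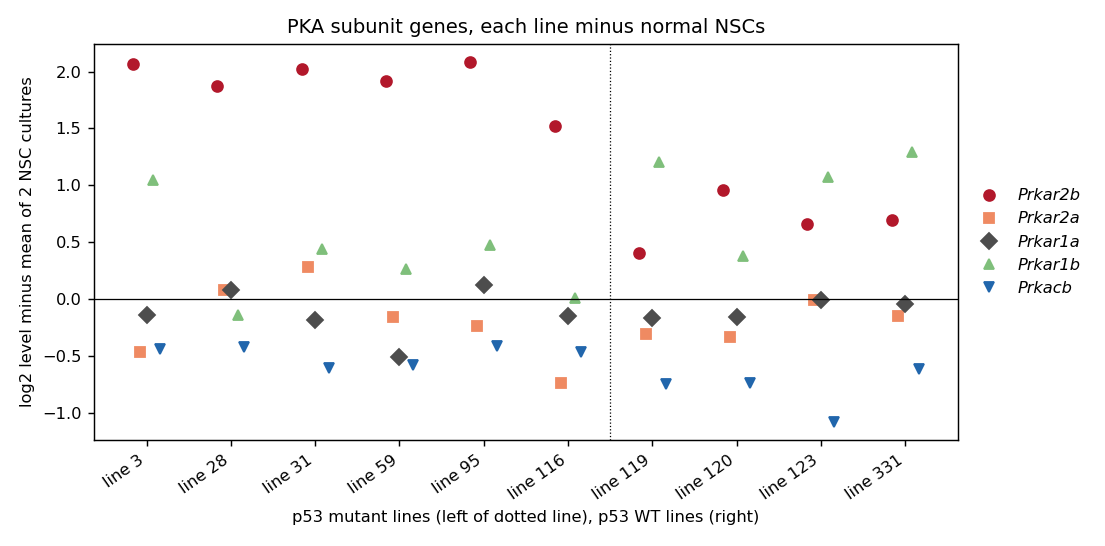
Log2 level of each PKA subunit gene in each immortalized line minus the mean of the 2 NSC cultures, with p53 mutant lines left of the dotted line and WT lines right of it. Prkar2b lies at 1.52 to 2.08 in mutant lines and 0.41 to 0.96 in WT lines, and Prkacb lies below 0 in all 10 lines.

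The genes most like Prkar2b over the 12 cell arrays, by Pearson r, were Otud4, which encodes a deubiquitinase (0.957), the nuclear import gene Kpna4 (0.935), Ap1ar (0.932), Tma16 (0.931) and Bcl10, a signalling adaptor of the NF-κB pathway (0.921). The most opposite were Rnf144a, a ubiquitin ligase gene (-0.947), Wdr6 (-0.923), Fnbp1, which encodes a membrane-bending protein (-0.916), Thbd, the gene of thrombomodulin (-0.911), and Phpt1, a histidine phosphatase gene (-0.910). Otud4 averaged 11.45 in mutant lines, 10.85 in WT lines and 10.17 in NSCs, and Rnf144a 7.36, 8.23 and 8.77. These r describe arrays that fall into the 3 groups seen for Prkar2b. Over the 12 tumors the nearest genes were others, Pus10 (0.931), Anp32e (0.915), Gclm, the modifier subunit of glutathione synthesis (0.903), Riok2 (0.892) and Zdhhc2 (0.883).

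The rest of the cAMP pathway was read in 10 lists of genes. In the lines against NSCs, 22 of their 117 measured genes were called (18.8%), 8 as higher (6.8%) and 14 as lower (12%), against 15% of all genes, 6.79% as higher and 8.22% as lower. The count of each list is small and was not tested against these shares, and the shift in cell type markers given above applies to each. Adcyap1r1, the receptor of the neuropeptide PACAP, fell by 3.40 ± 0.17 SE (7.12 in lines against 10.52 in NSCs, adjusted p 1.14e-08), the only call among 16 measured Gs-coupled receptors. Of 6 measured G protein α subunit genes, which did not include Gnas, Gnal was lower (-1.02). Of 10 adenylyl cyclases, which make cAMP, Adcy8 (-0.65) and Adcy5 (-0.34) were lower. Of 16 cAMP phosphodiesterases, which degrade it, 4 were lower and 1 higher: Pde7b (-3.05), Pde4b (-1.30) and Pde1c (-1.20) are among the lower, and Pde1a (2.96) is the higher one. The lists' median changes were -0.06 for receptors, -0.35 for α subunits, -0.18 for cyclases and -0.66 for phosphodiesterases, against -0.01 over all genes.

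Among the partners of the kinase, 4 of 19 AKAP genes were called (against 15% of all genes), of which 1 was higher, Rab32 (1.56), and 3 were lower, Akap5 (-1.09), Wasf1 (-0.97) and Akap6 (-0.83). None of 3 PKA inhibitor peptide genes was called, and of 10 genes of other cAMP effectors only Rapgef3, the exchange factor Epac1, was (-0.52). Downstream, 3 of 8 genes of the CREB family and its coactivators were higher, Atf1 (0.74), Crtc2 (0.64) and Ep300 (0.53), and none was lower. Of 17 CREB target genes, Dusp1 (1.18) and Per1 (0.46) were higher and Ppargc1a (-3.35) and Pde4b were lower. Gli3, whose product PKA phosphorylates for processing to a repressor, was the 1 call of 12 Hedgehog genes (9.56 in lines against 7.45 in NSCs, 2.11 ± 0.21 SE, adjusted p 1.13e-05).

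These pathway calls lean on the 2 NSC arrays. Of the 20 genes named from the lists, 15 lost the call without 1 or the other NSC array (adjusted p 0.0552 to 0.280), and Akap5, Pde7b, Gnal, Adcyap1r1 and Gli3 did not. Dusp1 also lost it under each of 7 lines left out, lines 3, 28, 31, 59, 116, 119 and 120 (adjusted p 0.0533 to 0.0662). Gnal, Akap6 and Adcy5 lay below the receptor gauge in both lines and NSCs, and were thus not shown to be above background in either. For Rab32, Adcy8, Pde1a, Pde1c, Pde7b and Ppargc1a this holds for the group with the lower level.

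In tumors, 4 of the 5 PKA genes were higher than in SubQ tissue. Prkar1a ranged from 7.72 to 9.04 over the 12 tumors (median 8.39), against 4.79, 5.15 and 5.11 in the SubQ samples. Prkacb ranged from 7.71 to 8.87 (median 8.34), against 4.99, 6.42 and 5.84 in SubQ samples. Prkar2b ranged from 6.77 to 8.57 (median 7.45), against 5.69, 5.80 and 6.67 in SubQ samples. In these 3 genes every tumor lay above every SubQ sample. The differences were 3.35 ± 0.25 SE for Prkar1a (limma adjusted p 6.46e-09), 2.60 ± 0.24 for Prkacb (adjusted p 6.13e-08) and 1.50 ± 0.31 for Prkar2b (adjusted p 0.000276). This fit took the 12 tumors as separate samples although they come from 4 lines, so its p-values do not treat the line as the replicate. In the same comparison 76.5% of all genes were called, 30.7% as higher and 45.8% as lower, 21.9% lay higher without overlap, and the median change over all genes was -0.28 as deposited, -0.14 with arrays centred on their medians and -0.11 with quantile normalization. The median of the 5 genes was 1.50. Since all 5 lay below the receptor gauge in SubQ tissue, the sizes of these differences are not exact. The odorant and vomeronasal receptor genes themselves changed by a median of -1.24 (medians of 3.66 in tumors and 4.92 in SubQ tissue), -0.47 with quantile normalization, under which Prkar1a differed by 3.73, Prkacb by 2.41 and Prkar2b by 1.23.

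Prkar2a ranged from 6.56 to 7.42 in tumors (median 7.07), against 5.58, 5.68 and 7.01 in SubQ samples. The third SubQ sample lay inside the tumor range. Its difference of 0.98 ± 0.25 SE was called (adjusted p 0.00210) and was 0.75 with quantile normalization, where it was not (adjusted p 0.0885). Prkar1b ranged from 5.67 to 7.05 in tumors (median 6.18), against 6.55, 6.37 and 5.72 in SubQ samples, and the groups overlapped throughout. It differed by -0.02 ± 0.23 SE (adjusted p 0.951), and by 0.12 with arrays centred.

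**Figure D3:**
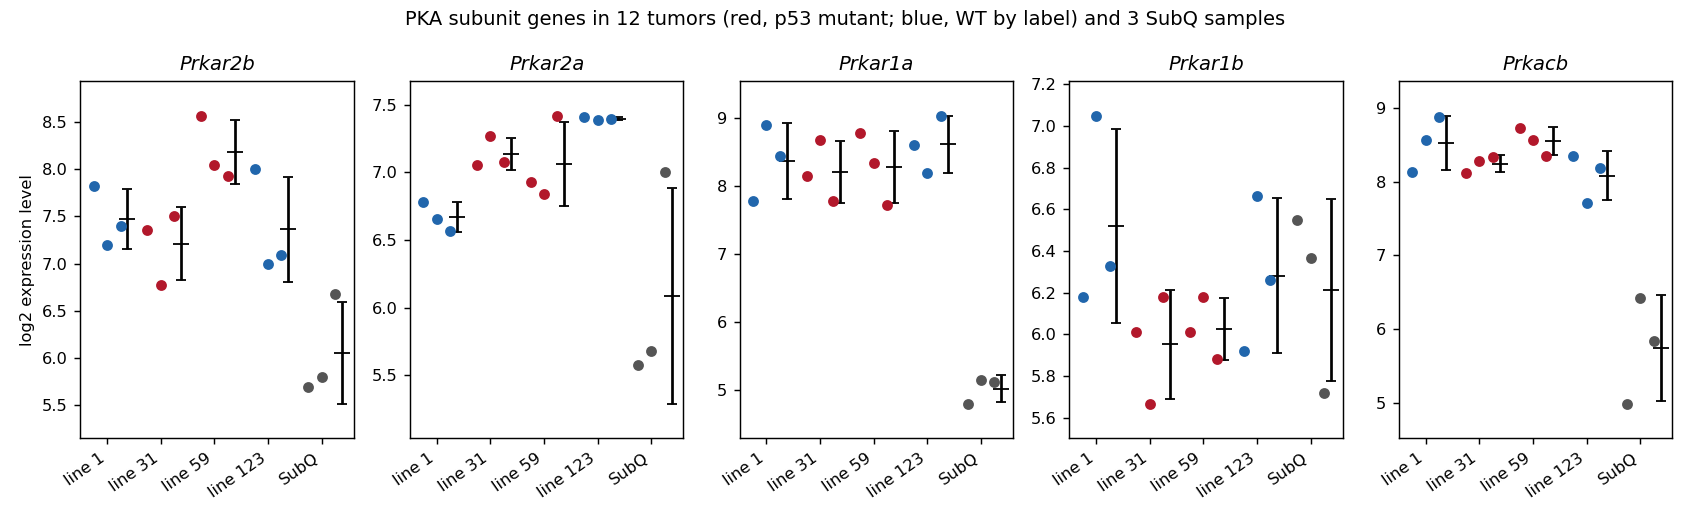
Log2 level of the PKA subunit genes in 3 tumors each of lines 1 and 123 (blue, labelled WT) and lines 31 and 59 (red, p53 mutant) and in 3 SubQ samples (grey), each panel on its own axis, with mean and SD in black. All tumors lie above all SubQ samples in Prkar2b, Prkar1a and Prkacb, but not in Prkar2a and Prkar1b.

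Tissue composition moved with this comparison. The mean of the 5 macrophage markers was 8.17 to 9.59 in tumors and 5.89 to 6.44 in SubQ samples, and that of the endothelial markers 6.32 to 8.49 and 5.61 to 5.84. The 6 fibroblast markers averaged 8.48 to 9.57 in tumors and 7.15 to 7.97 in SubQ samples. The adipocyte list was 4.86 to 6.98 in tumors and 7.32 to 7.67 in SubQ samples, and the muscle list 5.59 to 8.39 and 8.39 to 9.19. In such bulk samples fewer cells of a type and less RNA per cell cannot be told apart. The part of these cell types, and of the narrow spread of the SubQ arrays, in the PKA differences was not tested. Leaving out any 1 SubQ sample kept the calls of Prkar1a, Prkacb, Prkar2b and Prkar2a. So did fitting the line as a random block, and fitting 1 mean per tumor line.

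Around the kinase, 77 of the 117 pathway genes were called in tumors against SubQ tissue (65.8%), 28 as higher (23.9%) and 49 as lower (41.9%), against 30.7% higher and 45.8% lower among all genes. Of 8 CREB family and coactivator genes, 5 were higher and 1 lower, led by Ep300, a histone acetyltransferase (3.21 ± 0.20 SE, adjusted p 7.7e-10), and Creb1 (1.90). The list's median was 1.24, and 0.56 with quantile normalization. Under that scaling Atf1 lost its call (1.29 as deposited, 0.16 with adjusted p 0.705) and so did Crebbp, whose direction turned (1.19 as deposited, -0.27 with adjusted p 0.300). Crtc1, the 1 lower gene, lost its call with arrays centred (adjusted p 0.0522). Of 19 AKAP genes 9 were higher and 5 lower, with a median of 0.47 (0.19 with quantile normalization). Akap11 (2.71), Akap8 (2.06) and Akap13 (2.05) lay above the gauge in both groups and stayed called in each scaling. With quantile normalization 7 AKAP genes were higher and 2 lower, and Akap9 (adjusted p 0.667) and Akap12 (0.511) were among those that lost the call. Of the 5 lower AKAP genes, 4 (Akap3, Akap4, Akap14 and Sphkap) lay below the gauge in both tumors and SubQ tissue.

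Of 16 Gs-coupled receptor genes 1 was higher and 12 lower, with a median of -0.71, a smaller change than the -1.24 of the odorant and vomeronasal receptor genes, of which 1136 of 1194 were called lower. Of the 12 lower genes, 5 (Drd5, Glp1r, Gpr12, Gpr161 and Vipr2) lay below the gauge in both groups and 3 more lay below it in SubQ tissue, so that for 4 alone both groups lay above it. With quantile normalization 8 were lower. The other lists were mixed: 2 higher and 5 lower of 10 cyclases, 4 and 6 of 16 phosphodiesterases (Pde3b, 2.20), 2 and 3 of 6 α subunits (Gnai3, 2.43), 1 and 6 of 10 other effectors (Prkx, 1.72), 3 and 5 of 17 CREB targets, 1 and 5 of 12 Hedgehog genes, and 0 and 1 of 3 inhibitor peptides (Pkib, which lay below the gauge in both groups). The directions of the cyclase, phosphodiesterase and α subunit medians turned with quantile normalization, at 0.028, -0.037 and 0.46, against -0.46, 0.16 and -0.16 as deposited.

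Among the 12 tumors, no PKA gene was called by the F test over the lines of origin, and Prkar2a was called lower in line 1 tumors against the other lines. The moderated F test over the 4 lines called 5.07% of all genes and 0 of these 5, of which 2 had an unadjusted p under 0.05. Prkar2b was 8.57, 8.05 and 7.93 in line 59 tumors, against 7.82, 7.20 and 7.40 in line 1, 7.36, 6.77 and 7.50 in line 31 and 8.0, 7.0 and 7.10 in line 123. Line 59 was highest by mean, and 1 of its tumors lay below 1 tumor of line 123. The F test gave an adjusted p of 0.168, and line 59 stood 0.84 ± 0.24 SE above the other lines (adjusted p 0.135, with 1.17% of genes called). The mean of the NSC markers was also highest in line 59 tumors, at 5.67 to 5.76, against 4.78 to 5.23 in the others, and its part in the Prkar2b values was not tested.

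Prkar2a was lowest in line 1 tumors, at 6.78, 6.65 and 6.56, against 7.05, 7.27 and 7.08 in line 31, 6.93, 6.84 and 7.42 in line 59 and 7.41, 7.38 and 7.40 in line 123. All 3 tumors of line 1 lay below the other 9. The F test gave an adjusted p of 0.0603, and line 1 minus the other lines gave -0.53 ± 0.13 SE (adjusted p 0.0319, with 4.62% of genes called and 2.29% lower). The call of line 1 ended without the second (adjusted p 0.127) or the third (0.172) tumor of line 1, without any 1 tumor of line 123 (0.0529 to 0.0578) and with quantile normalization (0.0711), while the F test passed without the third tumor of line 59 (0.0211). Prkacb gave an adjusted p of 0.379, Prkar1b 0.393 and Prkar1a 0.828. Among the other pathway genes the F test called Pkia, Akap6, Map2, Pde8a, Ptger4 and Bves. Pkia, a PKA inhibitor peptide, was lowest in line 1 tumors (5.23) and highest in line 59 tumors (6.68), with 5.76 in line 31 and 6.21 in line 123 (adjusted p 0.0456). Its call ended with arrays centred on their medians (0.0575), with quantile normalization (0.0573) and in 8 of 12 fits that each left out 1 tumor (adjusted p 0.0714 to 0.118), namely replicates 2 and 3 of line 1, replicate 1 of line 31, replicates 1 and 3 of line 59 and each replicate of line 123. The call of Ptger4, a prostaglandin E2 receptor, ended in 7 of these 12 fits (0.0510 to 0.133), without replicate 2 or 3 of line 1, replicate 1 of line 31, replicate 3 of line 59 or any 1 replicate of line 123, and with the replicate block (0.0602). Akap6, Map2, Pde8a and Bves stayed called in all 12 fits.

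Prkar1a followed the spread of the array. Over the 12 tumors its level was higher where the SD of log2 levels over genes was higher (Pearson r = 0.850, permutation p = 0.00076, adjusted over 5 relations 0.0038, and Spearman rho = 0.811, permutation p = 0.00218, adjusted 0.0109). It was 0.850 without the 2 tumors farthest from the median spread and 0.932 after each line's mean was removed, and 0.507% of all genes had a higher r. In 3 of the 4 lines the tumors had the same order in both measures, but in line 31 replicate 3 had a level of 7.77 at a spread of 1.65 and replicate 1 a level of 8.15 at a spread of 1.64. For Prkacb r was 0.578 and rho 0.657 (adjusted p 0.119 and 0.0597), and r was 0.401 without those 2 tumors. Prkar2b, Prkar2a and Prkar1b gave r of 0.279, -0.188 and 0.166 (adjusted p 0.612 each). The part of the array spread in the Prkar1a values of the tumors was not tested.

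**Figure D4:**
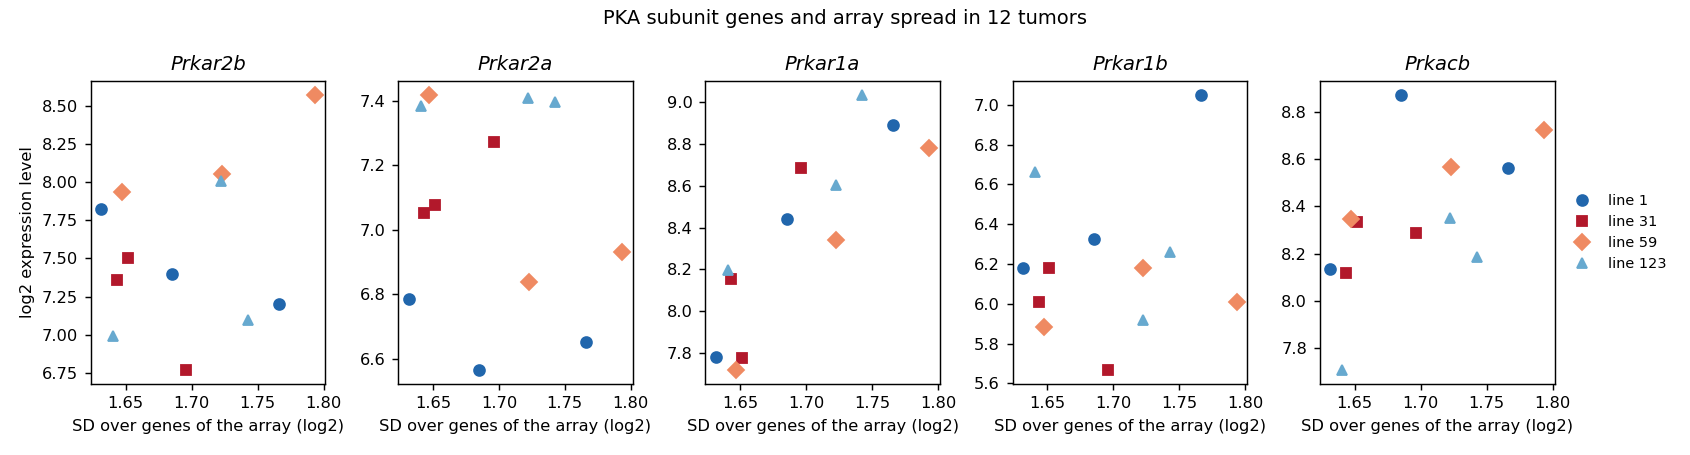
Log2 level of each PKA subunit gene (vertical) against the SD of log2 levels over all genes of the same array (horizontal) in 12 tumors, with a symbol per line of origin. Prkar1a is higher where the spread is higher (r = 0.850 over the 12 tumors), while Prkar2b shows no such run (r = 0.279) and line 59 tumors lie high.

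By line mean, Prkar2b in tumors did not follow the genotype: 1 mutant line was highest and the other lowest. With the line as the replicate, the tumors of mutant lines 31 and 59 averaged 7.70 and those of lines 1 and 123 averaged 7.42, a difference of 0.28 ± 0.34 SE (limma on 4 line means, adjusted p 0.9998). Line 31, at 10.60 one of the higher lines in culture, gave the tumors with the lowest mean (7.21), and line 59 those with the highest (8.18). The WT lines gave 7.47 (line 1) and 7.36 (line 123). No gene of 19937 was called in this comparison (0%), 705 had an unadjusted p under 0.05, and 1 was called when all 12 tumors were fitted with line as a random block. The differences of the other 4 genes lay between -0.41 for Prkar1b and 0.09 for Prkacb, and that of Prkar1b had an unadjusted p of 0.0370.

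Tumors were set beside the culture of their own line for lines 31, 59 and 123, after the 12 arrays were quantile normalized together. Cell and tissue arrays appear to have been normalized as separate sets by the authors, and there is 1 culture per line, so these differences are a description with no test. Prkar2b was 7.83, 7.14 and 7.95 in line 31 tumors, against 9.29 in the culture. It was 8.88, 8.47 and 8.42 in line 59 tumors, against 9.28 in the culture, and 8.40, 7.48 and 7.44 in line 123 tumors, against 7.91 in the culture. The mean difference was thus -1.65 in line 31, -0.69 in line 59 and -0.14 in line 123, and 8 of the 9 tumors lay below their culture. The culture values subtracted here belong to the contrast that chose the set, so nothing is read from the order of the lines.

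Prkar2a lay below its culture in 9 of 9 tumors (-0.89, -0.75 and -0.36 in lines 31, 59 and 123) and so did Prkar1b (-0.40, -0.32 and -0.64), as did 23.9% of all genes. Prkacb lay above its culture in 9 of 9 tumors (0.19, 0.31 and 0.47), as did 15.7% of all genes. Prkar1a was mixed, at 0.05, 0.28 and 0.22 with 5 of 9 tumors above. The direction of Prkacb and Prkar1a depends on the joint normalization: in the values as deposited both lay lower in tumors of every line (-1.26 to -1.57 for Prkacb and -1.33 to -1.73 for Prkar1a), and with arrays centred line 31 gave -0.09 for Prkacb and -0.25 for Prkar1a. Prkar2b lay lower by mean in all 3 lines in each of these scalings.

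**Figure D5:**
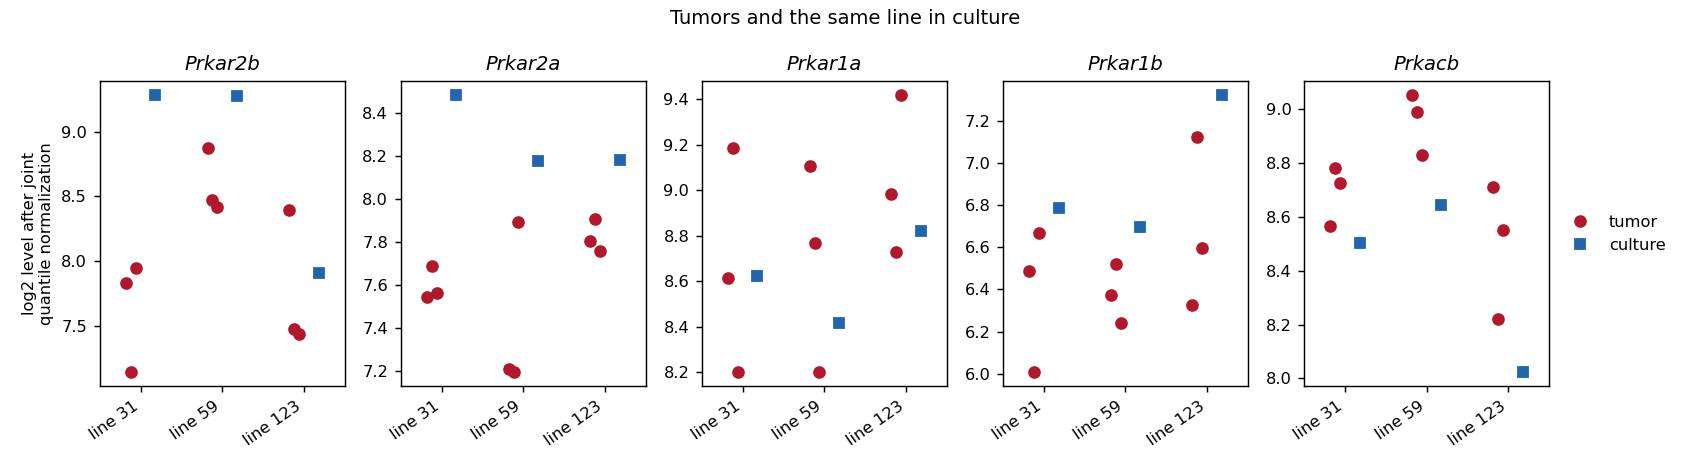
Log2 level after joint quantile normalization of 3 tumors (red) and the 1 culture (blue) of lines 31, 59 and 123, each gene on its own axis. Prkar2b lies below the culture in all line 31 and line 59 tumors and on both sides of it in line 123, and Prkacb lies above the culture in 9 of 9 tumors.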

How the data were processed

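RNA of 27 samples was measured on 1 Affymetrix array each, with total RNA extracted with Trizol, per the labels' protocols. For each probe set the authors deposited a log2 level, obtained with RMA. GCOS and Affymetrix Expression Console stand beside RMA in the submitters' processing notes, all without version, and a genome build for the annotation was not stated. The log2 values were used as deposited. Of 34760 probe sets, the 21640 listed with 1 gene were used, and the 1321 listed with several genes and 11799 with none were not used. For 954 genes with more than 1 such probe set, the one of highest mean was taken, for 19937 genes in all. Cell and tissue arrays shared no equal values, in contrast to arrays within each kind, and were analysed apart.

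Groups were taken from the labels. Tests used limma 3.58.1, run in R 4.3.3 (a linear model per gene with moderated variance, 2-sided p-values, Benjamini and Hochberg adjustment over all 19937 genes, threshold 0.05), for the 10 lines against 2 NSC cultures, the 12 tumors against 3 SubQ samples, the 4 tumor lines (F test, then single lines minus the average of the other 3) and the means of the 4 tumor lines by genotype. The spread of the 2 NSC arrays was pooled with that of the lines. Mutant and WT lines were also fitted, but that contrast chose the set, and it is given as a description with no p-value. Tumors and cultures were described without a test, after joint quantile normalization. Permutation tests of the relation to array spread used 100000 resamples. On simulated data the tests recovered 71.6% of genes given a log2 change of 1 for lines against NSCs, 74.6% for tumors against SubQ tissue and 52.2% between tumor lines. There 67 of 19937 genes had this change, while 67 others had a change of 0.5 and 66 a change of 2. Over all these sizes calls numbered 141, 127 and 103, of which 8, 7 and 4 were false. The data gave 2992, 15256 and 1010 calls, so the recovered shares need not hold for them. Python 3.11.15 with numpy 2.4.6, pandas 2.3.3, scipy 1.17.1 and matplotlib 3.10.9 did the rest. The number of arrays limits the precision, and NSCs have the fewest.

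The PKA genes, the 10 pathway lists and the marker lists were chosen with earlier results of these data known. The rule for names took the 6 subunit genes, up to 4 called genes with the largest change from each list, the genes with r most like or most opposite to Prkar2b, and marker genes beside a result. The alternatives were other treatment of probe sets, filtering, moderation, scaling and fold threshold, each array left out, the replicate block, the line as a block or as a mean, and, added after the data were seen, array spread as a covariate in the tumor lines and receptor genes left out in tumors against SubQ.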

Additional observations from a re-analysis of the deposited data

Results flagged for a closer look

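Of 15 groups of 4 to 10 samples checked for a sample far from the others, 2 gave one. Chance gives about 1 in 20 in a uniform group, but the groups are nested, since the 10 lines contain the mutant and the WT lines. Both samples were flagged only among the 10 lines, and not within the lines of their own genotype. Prkar1a was 9.61 in line 59, the lowest of the 10 lines, with the nearest line at 9.93. Its gap took up 0.513 of the range over the lines. Prkacb was 9.34 in line 123, the lowest of the 10 lines, with the nearest at 9.68 and a gap of 0.497 of the range. Without line 123, Prkacb in the lines differed from NSCs by -0.56 (limma adjusted p 0.00383). In tumors, Prkar1a in line 59 averaged 8.28 against 8.20 to 8.61 in the other lines, and Prkacb in line 123 averaged 8.08, the lowest of the 4 lines.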

How the results depend on the processing

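Under the alternatives 444 of 504 values, those of the subunit genes and the counts of called genes over all genes, kept their direction and side of the threshold. The cause was not tested for the exceptions, other than those that follow from fewer arrays or a stricter threshold. Against NSCs, Prkar2b was 1.42 with trended and robust moderation (adjusted p 0.0557) and 1.38 with quantile normalization (0.0590), and 1.31 to 1.53 with single arrays left out, with adjusted p from 0.0195 without line 119 to 0.300 without the second NSC array. Prkacb was -0.61 with a 2-fold requirement, and without single arrays -0.70 (second NSC array) to -0.52 (first NSC array). Prkar1b was 0.99 in the WT lines alone (adjusted p 0.0457). The 2992 calls became 1204 with the 2-fold requirement and 1402 to 3170 with single arrays left out, the 2 lowest without the second and the first NSC array.

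Against SubQ tissue, the 15256 calls became 7153 among genes above the median level and 8641 with the 2-fold requirement. Prkar2a was 0.98 with the 2-fold requirement and 0.75 with quantile normalization (adjusted p 0.0885). Prkar1b was 0.12 with arrays centred and -0.26 to 0.15 with single arrays left out, with 7 above 0. Between tumor lines, 1010 calls became 666 with the 2-fold requirement and 469 to 1659 with single tumors left out, the lowest without the third tumor of line 1 and the highest without the third of line 31. The range of line means of Prkar2a was 0.68 to 0.79 with single tumors left out, called without the third tumor of line 59 (0.73, adjusted p 0.0211), and 0.74 with array spread as a covariate, chosen after seeing the data (0.0495). Line 1 against the other lines gave -0.53 to -0.48 in Prkar2a in the fits that lost the call. Between tumor genotypes 0 calls became 1 with line as a random block. The difference of Prkar2b between mutant and WT lines was 1.14 to 1.33 over its alternatives.

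Tumors minus cultures moved most with the scaling. In values as deposited Prkar1a was -1.73, -1.33 and -1.50 in lines 31, 59 and 123, Prkar1b -2.02, -1.77 and -2.33, Prkar2a -2.67, -2.31 and -2.11, Prkar2b -3.38, -2.31 and -1.87, and Prkacb -1.57, -1.30 and -1.26. With arrays centred Prkar2a was -1.19 in line 31 and -0.54 in line 123, and Prkacb was -0.091 in line 31.

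Among tumors and SubQ samples the replicate numbers of the titles gave no sign of pairing. Deviations of same-numbered arrays correlated above 0.1 in 3 of 30 pairs, against 14 of 60 pairs with different numbers. Among lines and NSCs this was 0 of 2 pairs, against 5 of 42, and 2 pairs are too few to show or exclude pairing. With the replicate number as a block, Prkacb against NSCs was -0.42 (adjusted p 0.0968) and Prkar2b 1.97 (0.00154). Lines and NSCs shared only replicate numbers 1 and 2, so both values rest on p53 mutant lines 3 and 28 alone. Those lines minus the NSC mean were 2.07 and 1.87 in Prkar2b, and -0.43 and -0.42 in Prkacb. No WT line informed this fit, so it cannot show whether the calls over all lines hold. The range of Prkar2b line means in tumors was 0.97 with the block (adjusted p 0.0481), and calls numbered 3032, 15175 and 892. Of 1120 counts in pathway lists, 995 stayed within 1.5 times. Signal over background limits SubQ tissue most, where all 5 measured genes lay under the receptor gauge.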
